A study of Homo sapiens with 4 samples.

Results

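Leukaemia inhibitory factor (LIF) and interleukin-6 belong to a family of secreted cytokines that share the receptor subunit gp130, the product of IL6ST. A bound cytokine brings gp130 together with a partner receptor such as LIFR, Janus kinases attached to the receptors phosphorylate the transcription factor STAT3, and STAT3 switches on target genes, among them SOCS3, an inhibitor that shuts the receptor off. In the liver this pathway is known for driving the acute phase response, the release of plasma proteins such as fibrinogen and C-reactive protein. The genes followed here were 5 cytokines (LIF, IL6, IL11, OSM and CTF1), the 2 receptor genes LIFR and IL6ST, and the 2 signalling genes STAT3 and SOCS3. They were picked by gene symbol in the annotation of the array's probes, which gave 10 probes for the 9 genes out of 26423 probes and 17778 named genes in all. The group was drawn up with the berberine response of these samples known, so the members' values are a description and carry no test.

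The samples were 2 labelled as HepG2, a human hepatocellular carcinoma line, given berberine, a plant alkaloid, at 26.95 µM for 24 hours, and 2 labelled as untreated HepG2 controls, all grown in the same serum-containing medium. The samples' description field names another experiment, an adipocyte-type differentiation mix for 48 hours in both groups with berberine at 13.47 µM in the treated one; the titles, source and treatment fields were followed and the conflict was not resolved. Nothing in the labels says that the samples of a group were separate cultures, so every spread given here may be technical.

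Signals are given as log2(intensity + 1) after quantile normalization, beside the intensities as deposited. The probes carry the identifiers of a mouse array while the labels name human cells, so each gene name is that of a mouse probe. A dim signal says nothing of the human transcript, and a bright one does not show that the named gene's transcript was bound. With no detection call at hand, the 528 mouse olfactory receptor genes gave a background range, chosen after the data were seen, with a 95th percentile of 9.24, and 9.15% of all genes had means above it. None of the 9 measured hepatocyte markers, such as ALB, APOA1 and HNF4A, had a mean above that level (range 4.75 to 8.56). The measured markers of the labelled cell type were thus not seen above background on these mouse probes, which does not show what cells were used. Control 2 had the lowest median intensity, at 62 against 77 to 90 in the other arrays, and 269 values below 0.

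LIF was the member that differed most. Its probe read 2892 and 3570 intensity units in the berberine samples, against 651 and 386 units in the controls. After normalization it stood at 11.73 and 11.82 with berberine and at 9.15 and 8.64 in the controls. Both berberine samples lay above both controls, and 2.58 on the log2 scale separated the nearest pair of samples. The group means were 11.77 ± 0.06 and 8.89 ± 0.36 (SD, n = 2 each), a difference of 2.88 (SE 0.21), or 7.36-fold higher with berberine. Only 5 of the 17778 genes had a larger rise, which places LIF at rank 6. The berberine samples lay above the background range and the controls within it, so the fold is set against a control signal inside that range. The difference was 2.56 with median centring, 2.68 with the values as deposited and 2.62 to 3.14 with any 1 sample left out.

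**Figure D1:**
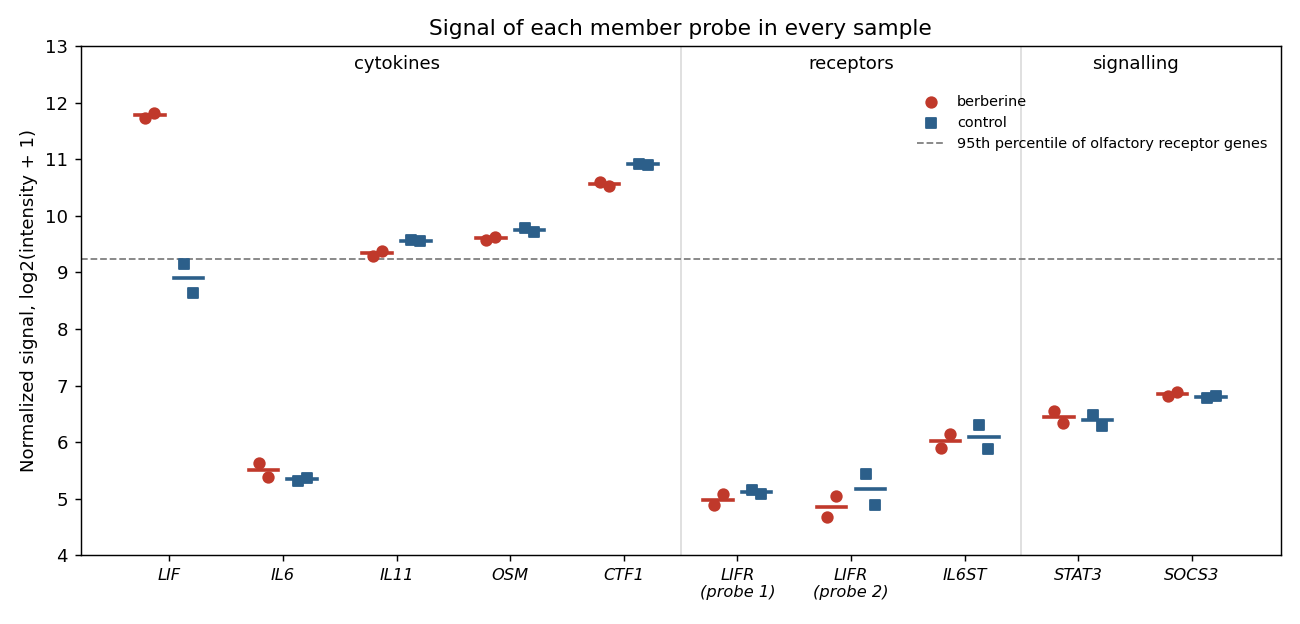
Normalized signal, log2(intensity + 1), of the 10 member probes in each sample, with berberine samples as circles, controls as squares and group means as bars; the dashed line is the top of the background range, 9.24. LIF stands at 11.73 and 11.82 with berberine and at 9.15 and 8.64 in controls, while for the gene-level probe of every other member the group means differ by 0.34 or less.

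CTF1, IL11 and OSM read lower with berberine, while IL6 differed by 0.17 in the direction of LIF. CTF1, cardiotrophin-1, which signals through LIFR and gp130 as LIF does, read 1304 and 1462 intensity units with berberine, against 2241 and 1894 units in the controls. Its normalized signals were 10.60 and 10.53 with berberine and 10.91 and 10.90 in controls. Both berberine samples were lower than both controls, with a difference in means of -0.34 (SE 0.11), and all 4 samples lay above the background range.

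IL11, a gp130 cytokine with roles in fibrosis and blood platelet formation, read 535 and 667 units with berberine, against 878 and 757 units in controls. On the normalized scale these were 9.30 and 9.38 with berberine, against 9.56 and 9.56 in controls, a difference of -0.23 (SE 0.11). The groups again did not overlap, with the berberine samples lower.

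OSM, oncostatin M, a cytokine made mainly by leukocytes that can use LIFR or its own receptor, read 640 and 790 units with berberine, against 1020 and 843 units in controls. Its normalized signals were 9.58 and 9.62 with berberine, against 9.79 and 9.71 in controls, a difference of -0.15 (SE 0.11). The groups were apart by 0.09 at the nearest samples. In the human assembly GRCh38.p14, OSM is the protein-coding gene next to LIF on chromosome 22, with 0 protein-coding genes between them; the LIF probe differed by 2.88 and the OSM probe by -0.15.

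The size of these lower readings depended on how the arrays were scaled. For CTF1, IL11 and OSM the differences were -0.58, -0.45 and -0.38 with the values as deposited, and -0.69, -0.56 and -0.50 with median centring. All 3 stayed below 0 in each of 17 other settings, though many of these change only the test and repeat a difference already given.

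IL6, the cytokine that gives the family its name and the main inducer of the acute phase response, read 49 and 45 units with berberine, against 49 and 23 units in controls. Its normalized signals were 5.63 and 5.39 with berberine, against 5.31 and 5.38 in controls, all inside the background range. The groups were apart by 0.02 on the normalized scale and overlapped in the deposited values, where the lower control is control 2. The difference was 0.17 (SE 0.14), 0.47 with the values as deposited and 0.05 without berberine 1.

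**Figure D2:**
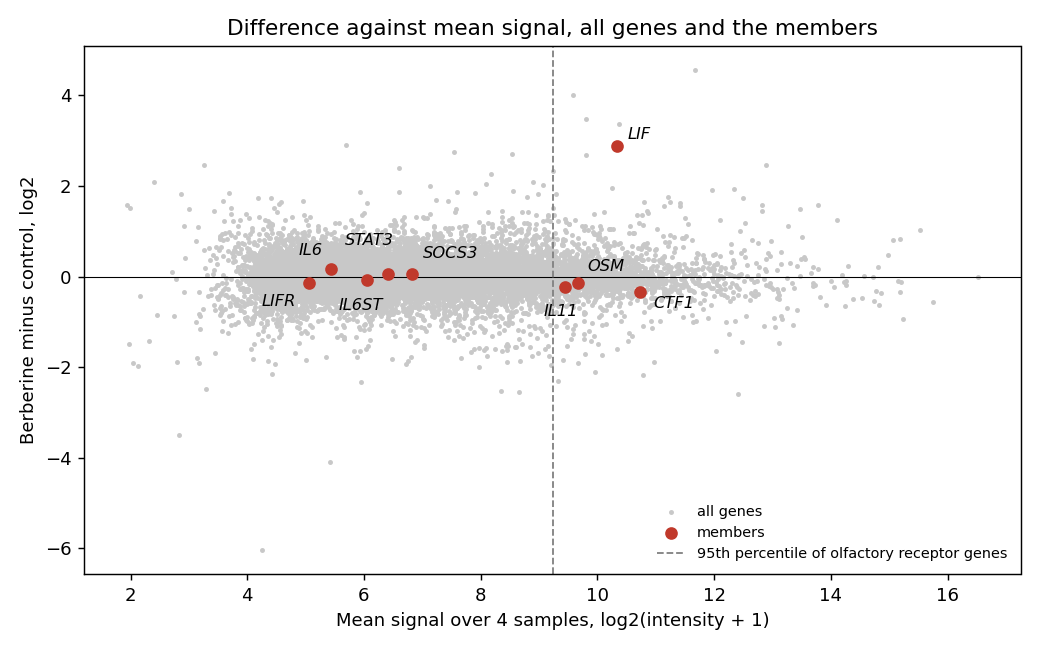
Difference between berberine and control (vertical axis, log2) against the mean signal over the 4 samples (horizontal axis, log2(intensity + 1)) for all 17778 genes in grey and the 9 members in red. LIF lies at 2.88, above nearly all genes of its signal, while the other 8 members lie within the cloud, between -0.34 and 0.17.

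The receptor genes showed no separation between groups. LIFR, the receptor that LIF binds, had 2 probes. The brighter read 30 and 37 units with berberine and 42 and 14 units in controls, and its normalized signals were 4.89 and 5.08 with berberine, against 5.16 and 5.08 in controls. The dimmer read 29 and 36 units with berberine and 51 and 12 units in controls, or 4.67 and 5.04 with berberine, against 5.44 and 4.89 in controls. Differences of -0.13 (SE 0.13) and -0.31 (SE 0.26) came from overlapping or tied samples in the background range, and the brighter probe turned to 0.43 with the values as deposited and 0.32 with median centring.

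IL6ST, the shared subunit gp130, read 59 and 76 units with berberine and 89 and 42 units in controls. Its normalized signals were 5.91 and 6.14 with berberine, against 6.30 and 5.88 in controls. The berberine samples lay between the controls, and the difference of -0.07 (SE 0.20) ranged from -0.27 without control 2 to 0.14 without control 1.

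The signalling genes did not separate the groups either. STAT3, the transcription factor of the pathway, read 88 and 85 units with berberine, against 100 and 61 units in controls, or 6.55 and 6.34 with berberine, against 6.48 and 6.29 in controls after normalization. The samples of the 2 groups interleaved, at a difference of 0.06 (SE 0.14).

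SOCS3, the feedback inhibitor that STAT3 induces, read 106 and 124 units with berberine, against 126 and 94 units in controls. Its normalized signals were 6.81 and 6.89 with berberine, against 6.79 and 6.82 in controls, a difference of 0.05 (SE 0.11) that turned to -0.04 with median centring. STAT3 and SOCS3 both lay in the background range in all 4 samples.

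Across the 9 members, both berberine samples were above both controls for 2 (LIF and IL6) and below them for 3 (IL11, OSM and CTF1). Over all 17778 genes the shares were 21.7% above and 23.3% below. In the limma fit over all genes (Benjamini-Hochberg adjusted p under 0.05), 0 of the 9 members were among the 9 genes called, 0.0506% of those tested. With a variance model that follows signal intensity, called the trend fit below, 1 member (LIF) was among the 260 genes called, 1.46% of those tested. Because this contrast chose the group, nothing is read from these counts. LIF exceeded the other members in the size of its difference under each of the normalizations plotted.

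**Figure D3:**
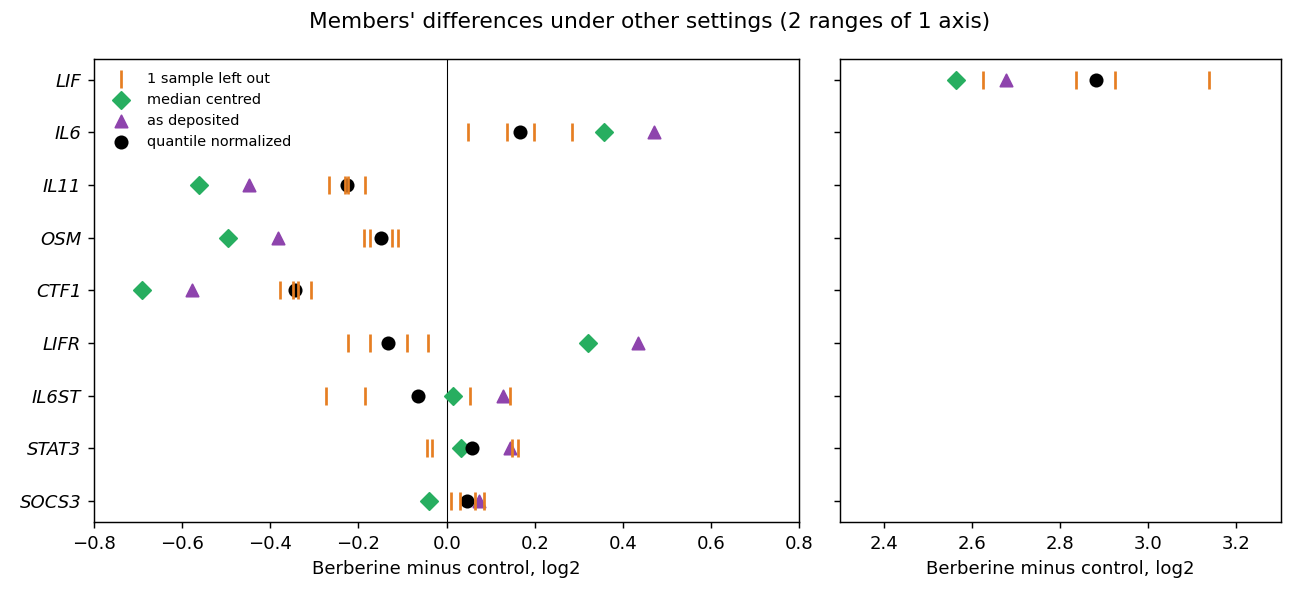
Difference between berberine and control (horizontal axis, log2, drawn in 2 ranges at the same scale) for each of the 9 members, after quantile normalization, with the values as deposited, with median centring and with each sample left out in turn. LIF stays between 2.56 and 3.14, CTF1, IL11 and OSM stay below 0, and LIFR, IL6ST, STAT3 and SOCS3 cross 0.

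The 3 genes whose signal followed LIF most closely over the 4 samples were VGF, BHLHE40 and HIVEP2. Likeness was the root-mean-square difference between signals centred on each gene's mean, among genes brighter than the median gene, and it was 0.10, 0.21 and 0.22 on the log2 scale. VGF, a precursor of secreted neuropeptides, stood at 11.13 and 11.16 with berberine, against 8.73 and 8.20 in controls. Like LIF it was lower in control 2 than in control 1, whereas BHLHE40, a repressor known for its part in the circadian clock, had 7.17 and 7.19 in controls. These 3 genes were found by their likeness in the same samples, so their values are a description too.

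The rest of the pathway was read from 6 lists of genes by role, of which 68 genes were measured. FOS rose and was the only one past the threshold in the main fit, and 67 did not pass. In the main fit 0.045% of all genes were called higher and 0.00562% lower. In the trend fit 8 pathway genes were called higher and 1 lower, where 0.962% and 0.501% of all genes were. With any 1 sample left out (control 1, control 2, berberine 1 or berberine 2), 0 genes were called by limma in either fit, all genes included, while 1312 to 2763 genes in the main fit and 1380 to 3098 in the trend fit had an unadjusted p under 0.05. The median difference of the 68 genes was 0.14, against -0.01 for all genes. The lists were made with earlier results of these samples known, and several of their genes had already been seen to differ, so these counts are no independent evidence.

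Among the other ligands and receptors, no gene passed either fit. Of 6 other cytokines of the family, CNTF, ciliary neurotrophic factor, had the smallest p, with a difference of 0.33 (SE 0.12, limma adjusted p = 0.388) inside the background range. CLCF1, a ligand of the CNTF receptor, was the 1 gene of these 6 above that range, at 10.01 and 10.02 with berberine, against 10.07 and 10.01 in controls. Of 5 other receptors, IL31RA, a receptor for interleukin-31, was at 0.49 (SE 0.26, limma adjusted p = 0.510). IL6RA, the interleukin-6 receptor, was at -0.02 (SE 0.13), with another, dimmer probe at 0.41, and OSMR, the oncostatin M receptor, was at 0.08 (SE 0.12). The list medians were 0.05 for the cytokines and 0.06 for the receptors.

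Of 8 Janus kinase and STAT genes, 0 passed either fit. STAT5A, a transcription factor of growth hormone and cytokine signalling, had the smallest p, at 0.48 (SE 0.17, limma adjusted p = 0.372), in the background range. The kinases JAK1 and JAK2 were at 0.22 (SE 0.17) and 0.10 (SE 0.13), and a dimmer JAK1 probe was at 0.41. The median over the 8 genes was 0.16.

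Of 15 inhibitors and phosphatases, 0 passed the main fit and SOCS7 was higher in the trend fit. SOCS7, a relative of SOCS3 in the suppressor of cytokine signalling family, read 679 and 842 units with berberine, against 423 and 317 units in controls. Its normalized signals were 9.66 and 9.72 with berberine, against 8.53 and 8.37 in controls, a difference of 1.24 (SE 0.12, limma adjusted p = 0.106, trend fit 0.0140). The controls lay in the background range and the berberine samples above it.

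Other SOCS genes, named after their values were seen, passed neither fit. SOCS2, a brake on growth hormone signalling, was at 0.64 (SE 0.12, limma adjusted p = 0.223, trend fit 0.0839). SOCS1, a brake on interferon signalling, was above the background range in all samples, at 10.35 and 10.29 with berberine and 10.57 and 10.52 in controls (limma adjusted p = 0.462). The median over the 15 genes was 0.0049.

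Of 16 genes known as STAT3 targets, FOS rose in the main fit and 15 did not pass it. FOS, a subunit of the AP-1 transcription factor, read 194 and 230 units with berberine, against 51 and 23 units in controls. Its normalized signals were 7.80 and 7.80 with berberine, against 5.44 and 5.38 in controls. The difference was 2.40 (SE 0.11, limma adjusted p = 0.0474), with all 4 samples in the background range. The berberine values tied after normalization, so this SE rests mostly on the variance that limma pools over all genes. The call was lost when any 1 sample was left out, with limma adjusted p-values of 0.307 to 0.638, and it held in 5 of 17 other settings. FOS is known as a target of growth factor and MAP kinase signalling as well.

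In the trend fit 7 of these 16 targets were called, FOS among them and all higher, where 0.962% of all genes were called higher. TNFRSF12A, the receptor of the cytokine TWEAK, read 1049 and 1426 units with berberine, against 326 and 238 units in controls. Its difference was 2.33 (SE 0.14, limma adjusted p = 0.0688, trend fit 0.00552), and a dimmer probe for the same gene was at 0.48 (SE 0.25). The TNFRSF12A controls lay in the background range and the berberine samples above it. BCL6, a transcriptional repressor, stood at 10.42 and 10.48 with berberine, against 9.76 and 9.80 in controls. Its difference was 0.67 (SE 0.11, limma adjusted p = 0.177, trend fit 0.0318), and all 4 samples were above the background range.

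The others in that count were JUNB, CEBPB, TIMP1 and VEGFA, at 1.21, 1.58, 1.61 and 1.64 (limma adjusted p from 0.0716 to 0.106 in the main fit). They encode an AP-1 subunit, a factor that takes part in the acute phase response, an inhibitor of matrix proteases and an angiogenic growth factor, and another JUNB probe was at 0.10. All 4 samples of JUNB and of TIMP1 lay in the background range, and all 4 of CEBPB and of VEGFA above it. Both berberine samples were above both controls for 11 of the 16 targets and below them for 1, where over all genes 21.7% were above and 23.3% below. The median difference was 0.31, the highest of the 6 lists, with SOCS3 itself, which is a target too, counted among the members. The list was made with earlier results of these samples known, so nothing is read from its counts or its median. Targets that did not pass either fit included CCND1, cyclin D1, at 0.17 (SE 0.10), and BCL2L1, which encodes the survival protein BCL-XL, at 0.43 (SE 0.11), both named after their values were seen. The targets with a difference below 0, named in the same way, were MCL1, IRF1 and CEBPD. They were at -0.25 (SE 0.12), -0.16 (SE 0.30) and -0.07 (SE 0.11).

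**Figure D4:**
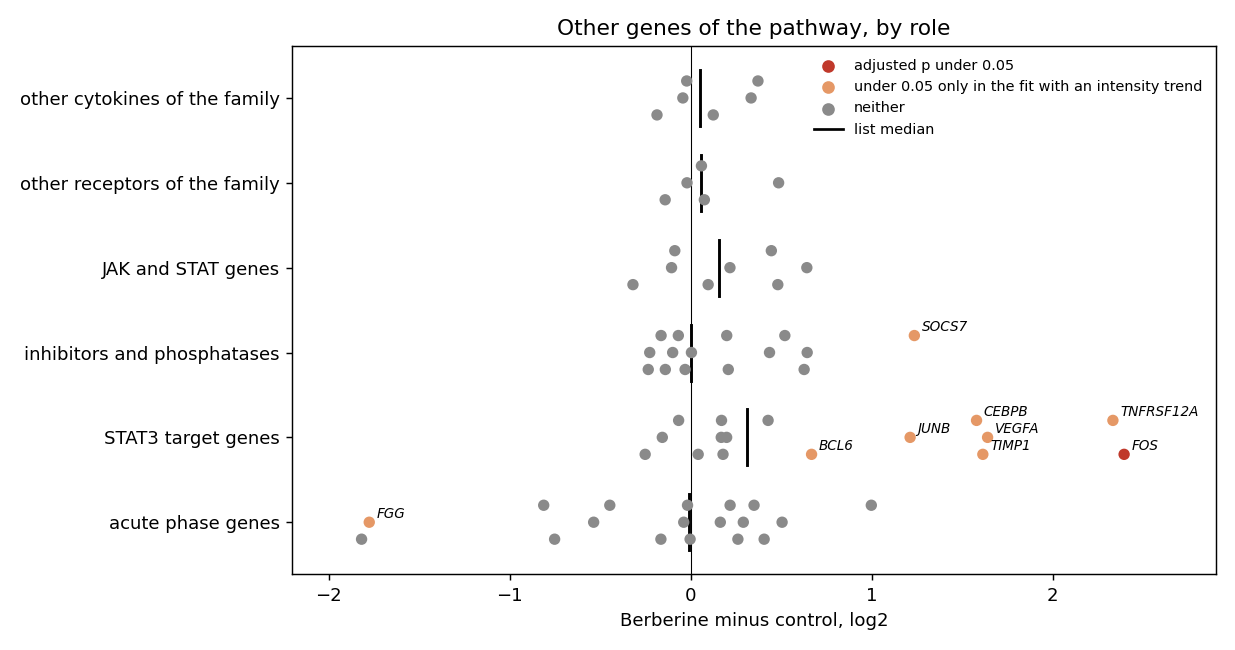
Difference between berberine and control (horizontal axis, log2) of each of the 68 measured pathway genes in 6 lists by role, coloured by whether the gene passed the main limma fit, the trend fit only or neither, with the list medians as black bars. Of the 9 coloured genes, 7 are STAT3 targets, and FGG is the 1 gene on the lower side. The lists were made with earlier results of these samples known, so nothing is read from how the colours fall.

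The acute phase genes had differences of both signs. Of 18 measured, 0 passed the main fit, and the differences ran from -1.82 to 1.00 with a median of -0.0096. Both berberine samples were above both controls for 3 and below them for 5, and the groups overlapped for 10. Over all genes the shares were 21.7% above and 23.3% below, and nothing is read from these counts. FGG, the gamma chain of fibrinogen, read 38 and 35 units with berberine, against 118 and 93 units in controls. It was lower in the trend fit, at -1.77 (SE 0.12, limma adjusted p = 0.0688, trend fit 0.0163), inside the background range. FGA and FGB, the other chains of fibrinogen, named after their values were seen, were at -0.54 (SE 0.18, limma adjusted p = 0.367) and -0.45 (SE 0.27, limma adjusted p = 0.553), and other FGA probes ranged from -0.90 to 0.39. Also named after their values were seen, SAA3, a serum amyloid A protein, C3, a complement component, and LBP, which binds bacterial lipopolysaccharide, were at -0.81, -0.75 and -1.82 (limma adjusted p = 0.247, 0.405 and 0.535), and 1 berberine sample of LBP stood far below the other. The 3 genes with both berberine samples above both controls, named in the same way, were SERPINA3N, SAA4 and CP. They were at 0.51, 0.41 and 0.29 (limma adjusted p = 0.315, 0.305 and 0.484), and a dimmer CP probe was at -0.04. ITIH3 had the largest rise, at 1.00 (limma adjusted p = 0.547), with overlapping groups. CRP, C-reactive protein, was at 0.26 (SE 0.33) and HP, haptoglobin, at -0.0025 (SE 0.22). None of the 18 had a mean above the background range.

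Marker genes of other cell types were read beside these results, and their part in them was not tested. Of 10 adipocyte, 8 macrophage and 8 fibroblast markers measured, 0 passed either fit. Summed intensity of the adipocyte markers was 1625 and 1670 with berberine, against 1725 and 1740 in controls. Single adipocyte markers had differences of both signs. Both berberine samples were above both controls for 3 and below them for 4 of the 10, where over all genes 21.7% were above and 23.3% below. FABP4, a fatty acid binding protein, was at 1.00 (limma adjusted p = 0.143, trend fit 0.0600), RETN, resistin, at -1.20 (limma adjusted p = 0.233) and ADIPOQ, adiponectin, at -0.64 (limma adjusted p = 0.350). Summed intensity was 1225 and 1205 with berberine, against 1138 and 1069 in controls, for the macrophage markers. For the fibroblast markers it was 565 and 551 with berberine, against 472 and 476 in controls. The brightest macrophage marker, CD14, was at 0.40 (limma adjusted p = 0.332). The brightest fibroblast marker, POSTN, a matrix protein, was at 0.96 (limma adjusted p = 0.185). These had the largest rise of their lists and weigh most in the sums. The medians of the 2 lists were -0.0024 and -0.05. In each list both berberine samples were above both controls for 1 gene and below them for 1. Summed intensity of the hepatocyte markers was 1129 and 1469 with berberine, against 1518 and 1494 in controls, with a list median of 0.08. Among them APOA2 stood at 7.30 in berberine 1, against 9.04 in berberine 2 and 8.92 and 8.98 in controls. No marker had a mean at 0, the lowest being 4.75 (PPARG), and 1 of the adipocyte markers, SLC2A4, was above the background range at 9.40. In bulk RNA, fewer cells of a type and less RNA per cell cannot be told apart.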

How the data were processed

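Total RNA was profiled on 4 one-colour arrays, with Cy5-labelled amplified RNA per the labels' protocols. The deposited table holds linear intensity values as whole numbers. How the arrays were scanned, background-corrected and normalized is not stated in the sources used here. Gene names came from the platform annotation, which named 20377 probes, and the 6046 unnamed probes were left out of the tests. Quantile normalization ran over all probes before negative values were raised to 0 and log2(value + 1) was computed. Of several probes for 1 gene (2252 genes), the brightest stood for it. The tests were run in R 4.3.3 using limma 3.58.1: lmFit and eBayes with neither trend nor block, 2-sided p-values adjusted by Benjamini-Hochberg across the 17778 genes, called under 0.05. There were 2 residual degrees of freedom, and an exact permutation test of 2 against 2 samples cannot go below 0.333. The fit was tested on simulated data. SEs are limma's. The number of arrays limits the precision.

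The members, lists and settings were chosen with earlier results of these data known. The rule for named genes took all members, each list's genes past the threshold in the main or trend fit or otherwise the smallest p, and the 3 genes most like LIF; others are marked as named after their values were seen, as were the single markers of cell types. Listed names without a probe under that symbol were not analysed here. Figures were drawn with matplotlib 3.10.9.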

Additional observations from a re-analysis of the deposited data

How the results depend on the processing

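With limma over all genes, 9 genes passed (8 higher, 1 lower). The number was 2, all higher, with the values as deposited, 0 with median centring and 3 with each named probe as its own row. It was 138 (92 higher, 46 lower) without the dimmest 30% of genes, 251 (166 higher, 85 lower) with a pseudocount of 50, and 260 (171 higher, 89 lower) with an intensity trend. The count of pathway genes, 1 in the main fit, was 0 with the values as deposited, with median centring and with each probe as its own row, 8 without the dimmest genes, and 9 with the pseudocount of 50 and with the trend. Unadjusted limma p-values under 0.05 numbered 2247 for all genes and 14 for the pathway with median centring, and 494 and 9 with the values as deposited. With each named probe as its own row they numbered 2528 for all probes and 22 for the pathway probes. Both counts were 0 to 0 with each sample left out in turn, where 1312 to 2763 genes and 12 to 21 pathway genes had an unadjusted limma p under 0.05. They were also 0 to 0 in the trend fit with each sample left out, added after seeing the data, where unadjusted p-values numbered 1380 to 3098 and 11 to 21. The lone sample left in a group is then assumed to vary like the other group. The cause of these shifts was not tested. The robust option and the mean of a gene's probes gave 9 and 8 genes, with 1 pathway gene each.

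The replicate block gave 0 genes and 0 pathway genes (unadjusted limma p under 0.05 for 1878 and 19). Replicates share only a number: deviations from the group means of same-numbered samples correlated at 0.09 across genes. None of the 12 named pathway genes changed direction in the settings run. They were picked by their p-values in these same samples, so this is a description and says nothing of the other pathway genes. Among members, LIF, CTF1, IL11, OSM and IL6 kept their direction in all settings run. LIFR kept it in 14 of 16, SOCS3 in 16, STAT3 in 13 and IL6ST in 11 of 17. Many of these settings change only the test, so they repeat a difference and cannot turn it.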

Other observations

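Interleukin genes outside the gp130 family were read for comparison, as a list chosen after the values were seen. Of 27 measured, 0 passed the limma fit with or without an intensity trend. An unadjusted limma p under 0.05 was found for 4 of the 27, and for 2318 of all 17778 genes. The differences of the 27 genes ran from -0.96 to 0.48 with a median of 0.02. Both berberine samples were above both controls for 7 and below them for 2, where over all genes 21.7% were above and 23.3% below. IL1B, a cytokine of the inflammasome, had the largest rise in value, at 9.58 and 9.66 with berberine, against 9.25 and 9.04 in controls (difference 0.48, SE 0.13, limma adjusted p = 0.316). IL20, a cytokine of the skin, was the lowest, at 6.51 and 6.58 with berberine, against 6.93 and 8.08 in controls (difference -0.96, SE 0.42, limma adjusted p = 0.429), where control 2 stood apart from the rest.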
